A study of Mus musculus with 2 samples.

Results

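The 9 genes described here, Pln, Atp2a2, Ryr2, Itpr1, Cacna1c, Kcnmb1, Kcnma1, Sorbs2 and Dgkb, encode calcium handling proteins, ion channels and an associated kinase and scaffold protein of smooth muscle. All 9 were found among the 33696 features of both count matrices. The members were chosen by measured values of these same libraries, namely a higher level in smooth muscle than in modulated stromal barcodes and, for Pln, Sorbs2 and Dgkb, a lower level in the smooth muscle of the Kif13b-/- library. Those differences are therefore given as descriptions, with no test.

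The series measured single cells of the mouse aorta by droplet-based 3' RNA sequencing, in 1 library titled Kif13b-/- and 1 library of wild-type (WT) aorta. Kif13b encodes a kinesin motor of microtubules, and the genotype label of the first library reads knock down whereas its title writes a homozygous mutation. Both libraries are labelled aorta, while the design text of the series speaks only of cultured macrophages from bone marrow. The strain, age, sex, diet and number of animals behind each library, and the allele, are not given in the sources used here. There is no replicate of either genotype, no p value was computed, and every 95% interval covers counting error only, not differences between animals.

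In a vascular smooth muscle cell, calcium enters through L-type channels of the plasma membrane and is released from the sarcoplasmic reticulum, the internal calcium store, through inositol trisphosphate and ryanodine receptors. The pump SERCA returns it to the store, and the small membrane protein phospholamban holds the pump back until it is phosphorylated. Local release by ryanodine receptors opens large-conductance calcium-activated potassium (BK) channels, which hyperpolarise the membrane and oppose contraction.

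The Kif13b-/- library held 7766 barcodes at a median depth of 5384.5 UMIs (unique molecular identifiers, which tag single captured transcripts), and the WT library held 21126 barcodes at 2162.5. Once barcodes of poor quality and likely doublets were left out, 6887 Kif13b-/- and 16686 WT barcodes were analysed, of which 38 barcode sequences occurred in both libraries. Smooth muscle-like barcodes, named from 12 contractile markers with none of the 9 genes among them, numbered 685 in the Kif13b-/- library (9.95%) and 1738 in the WT library (10.4%). Those of at least 5000 UMIs, called deep, numbered 604 in the Kif13b-/- and 1241 in the WT library, and 1 Kif13b-/- and 2 WT barcodes of these were among the shared sequences. Levels are UMIs of the gene per 1000000 UMIs of the class in a library (CPM). They count 3' ends and are not scaled to gene length, so levels are compared between classes and libraries and never between genes. A gene is called higher or lower where the libraries or classes differ by a ratio of 1.5 or more.

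The deep barcodes expressed all 12 contractile markers in both libraries. The 12 markers took 3.91% of the UMIs in Kif13b-/- and 4.21% in WT barcodes. Acta2, smooth muscle actin, had 12606 CPM in Kif13b-/- and 12934 CPM in WT barcodes, and Myh11, smooth muscle myosin, had 3621 CPM in Kif13b-/- and 4184 CPM in WT barcodes. Markers of other muscle were low: the 10 cardiac markers summed to 23.1 CPM in Kif13b-/- and 22.5 CPM in WT barcodes, with Myh7, Myl7, Nppa and Mybpc3 at 0 in both. The 4 modulated stromal markers summed to 82.3 CPM in Kif13b-/- and 57.5 CPM in WT barcodes, and the 7 pericyte markers to 4872 CPM in Kif13b-/- and 4224 CPM in WT barcodes. Nuclear RNAs, a sign of RNA quality, moved in different directions: Meg3 had 125 CPM in Kif13b-/- and 68.9 CPM in WT barcodes (log2 ratio 0.86), Neat1 297 CPM in Kif13b-/- and 232 CPM in WT barcodes (0.36), and Malat1 34947 CPM in Kif13b-/- and 42612 CPM in WT barcodes (-0.29). Mitochondrial transcripts took 7.66% of the UMIs in Kif13b-/- and 6.53% in WT barcodes. The part of these markers in the differences below was not tested. Kif13b itself had 46.2 CPM in Kif13b-/- and 58.1 CPM in WT barcodes (log2 ratio -0.33, 95% interval -0.52 to -0.14). Its transcript was thus present in the library titled Kif13b-/-, and 3' counts do not show whether part of the gene is missing, so this gives no check of the genotype.

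The genes lie on 8 chromosomes of mm10 and range from 8.32 kb to 816.5 kb in length in the GENCODE M21 annotation. On the plus strand lie Pln (chr10:53337667-53345987), Sorbs2 (chr8:45507788-45827906), Dgkb (chr12:37817726-38634239), Itpr1 (chr6:108213096-108551109) and Kcnmb1 (chr11:33963013-33973641). On the minus strand lie Atp2a2 (chr5:122453513-122502225), Ryr2 (chr13:11553102-12106945) and Cacna1c (chr6:118587240-119196418). Kcnma1, at chr14:23289431-24014491 on the minus strand, is the only member on the chromosome of Kif13b, and their starts lie 41.4 Mb apart. RefSeq (GRCm38.p6) gave 250-base windows upstream of a transcript start for 7 of the 9 genes. The windows of Pln, Sorbs2 (the first of 3) and Dgkb are shown because these 3 genes differed between the libraries, and that of Kcnmb1 is shown as a smooth muscle gene that stayed within a ratio of 1.5. They are written 5′ to 3′ on the gene's strand, with capitals for matches on either strand to the E-box (CANNTG) or the GATA site (GATAA).
Pln, chr10:53337436-53337685, plus strand: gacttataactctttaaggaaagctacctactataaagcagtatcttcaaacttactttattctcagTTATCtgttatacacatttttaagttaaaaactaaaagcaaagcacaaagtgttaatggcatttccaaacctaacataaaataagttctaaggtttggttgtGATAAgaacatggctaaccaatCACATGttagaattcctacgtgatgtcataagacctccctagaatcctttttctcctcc
Sorbs2, chr8:45507538-45507787, plus strand: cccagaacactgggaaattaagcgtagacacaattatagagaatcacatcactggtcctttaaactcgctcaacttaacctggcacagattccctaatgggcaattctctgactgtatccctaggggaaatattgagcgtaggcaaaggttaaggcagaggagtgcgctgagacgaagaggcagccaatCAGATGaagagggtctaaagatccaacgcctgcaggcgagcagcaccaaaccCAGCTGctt
Dgkb, chr12:37879924-37880173, plus strand, inside the annotated span of the gene: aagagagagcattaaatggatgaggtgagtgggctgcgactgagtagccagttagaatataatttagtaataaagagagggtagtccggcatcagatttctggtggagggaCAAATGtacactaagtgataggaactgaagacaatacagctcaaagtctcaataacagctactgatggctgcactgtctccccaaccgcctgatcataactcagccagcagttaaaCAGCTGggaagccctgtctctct
Kcnmb1, chr11:33962763-33963012, plus strand: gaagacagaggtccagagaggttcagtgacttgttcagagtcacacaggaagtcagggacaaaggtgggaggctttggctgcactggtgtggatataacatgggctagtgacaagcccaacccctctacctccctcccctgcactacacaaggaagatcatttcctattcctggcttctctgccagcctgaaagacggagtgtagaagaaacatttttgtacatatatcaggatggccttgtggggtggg

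The Pln window held 1 E-box and 2 GATA sites, the Sorbs2 and Dgkb windows 2 E-boxes each, and the Kcnmb1 window neither. Among the 32851 windows of this length in the table, 66.2% held an E-box and 22.6% a GATA site. The CArG box, the site of serum response factor at many contractile genes, occurred in 1.47% of all windows and the MEF2 site in 0.508%. None of the 11 windows of the 7 members held either, which says only that these letters are not in these windows.

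In both libraries all 9 genes were at least 1.5-fold higher in smooth muscle-like than in modulated stromal barcodes, a cluster led by Vcam1, Sfrp2 and Grem1 and named for 3 raised markers of 4, with 601 Kif13b-/- and 1189 WT barcodes. Of all genes measured, 16.5% in the Kif13b-/- library and 16.1% in the WT library were higher in smooth muscle by this ratio. The members were chosen for this contrast, so nothing is read from the count or from the order of the values below.

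Pln, the phospholamban gene, had the largest difference with the clusters as reported. It had 57.4 CPM in smooth muscle-like against 1.84 CPM in modulated Kif13b-/- barcodes (log2 ratio 4.93), and 118 against 2.14 CPM in WT barcodes (5.76). Dgkb, which encodes a diacylglycerol kinase, an enzyme that removes the second messenger diacylglycerol, came next in both libraries, at 274 against 15.7 CPM in Kif13b-/- barcodes (4.12) and 444 against 24.4 CPM in WT barcodes (4.19). These sizes depend on the clusters. With barcodes limited to 10% mitochondrial UMIs, where the cluster led by Sparcl1 was not named smooth muscle, Pln had 0.93 in Kif13b-/- and 2.34 in WT barcodes, Sorbs2 0.73 in Kif13b-/- and 1.05 in WT barcodes, and Dgkb 3.39 in Kif13b-/- and 2.98 in WT barcodes. As reported, in both libraries Pln and Dgkb kept a smaller share of their smooth muscle level in modulated barcodes than Acta2 did. Acta2 in modulated barcodes stood at 10.1% of its smooth muscle level in the Kif13b-/- library and 11.9% in the WT library, while Pln stood at 3.21% in the Kif13b-/- and 1.81% in the WT library and Dgkb at 5.73% in the Kif13b-/- and 5.48% in the WT library. Sorbs2 stood above Acta2 by this measure in the Kif13b-/- library, at 18.4%, and below it in the WT library, at 10.4%. The placing depends on the contractile gene taken: Myh11 stood at 6.69% in the Kif13b-/- and 6.47% in the WT library. Sorbs2 was above Myh11 in both libraries, and Pln and Dgkb were below it in both.

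The channels and the pump differed among themselves in how much of their level modulated barcodes kept. Kcnmb1, the accessory beta subunit that raises the calcium sensitivity of BK channels, had a log2 ratio of 2.68 in the Kif13b-/- library and 2.33 in the WT library. Kcnma1, the pore-forming BK subunit, had 1.25 in the Kif13b-/- and 1.17 in the WT library. As a description only, since the members were chosen for this contrast, the accessory subunit had the larger value of the 2 in both libraries. Ryr2, a ryanodine receptor of the calcium store, had a log2 ratio of 2.18 in Kif13b-/- and 2.38 in WT barcodes. Cacna1c, the pore of the L-type calcium channel, had 1.32 in Kif13b-/- and 1.41 in WT barcodes. Itpr1, an inositol trisphosphate receptor, and Atp2a2, the SERCA pump, had the smallest differences, Itpr1 at 0.93 in Kif13b-/- and 1.03 in WT barcodes and Atp2a2 at 0.82 in Kif13b-/- and 0.90 in WT barcodes. The pump in modulated barcodes thus stood at 56.5% of its smooth muscle level in the Kif13b-/- and 53.6% in the WT library, where the gene of its inhibitor phospholamban was represented by 22 Kif13b-/- and 33 WT UMIs in all.

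Not every member was a smooth muscle gene first. Levels were ranked over 13 Kif13b-/- and 15 WT classes with at least 50 barcodes. Clusters without a class name stayed out of the ranking and held 2597 Kif13b-/- (37.7%) and 3995 WT (23.9%) barcodes. An unnamed cluster of 473 Kif13b-/- and 1400 WT barcodes came closest to smooth muscle among the classes, with 1 of 12 markers raised. Another held 1301 Kif13b-/- and 7 WT barcodes. Pln, Ryr2, Kcnmb1, Dgkb and Atp2a2 were highest in smooth muscle-like barcodes of both libraries, with counting intervals apart from those of the next class. Cacna1c was highest in pericyte-like barcodes, with 1040 CPM in the Kif13b-/- and 909.9 CPM in the WT library, against 375 CPM in Kif13b-/- and 418 CPM in WT smooth muscle. Pericytes are the mural cells of small vessels, and the class held 66 Kif13b-/- and 85 WT barcodes. Kcnma1 had 527 CPM in chondrocyte-like and 471 CPM in smooth muscle-like Kif13b-/- barcodes, and 487 CPM in chondrocyte-like and 497 CPM in smooth muscle-like WT barcodes, where the intervals of the 2 classes overlapped. Itpr1 did not differ beyond counting error between endothelial-like barcodes, at 378 CPM in Kif13b-/- and 387 CPM in WT, and smooth muscle, at 365 CPM in Kif13b-/- and 401 CPM in WT. Sorbs2 in Schwann-like or glial-like barcodes reached 443 CPM in Kif13b-/- and 455 CPM in WT, which overlapped its smooth muscle level in the Kif13b-/- library (471 CPM) and lay below it in the WT library (942 CPM). Atp2a2, present in every class, was lowest in neutrophil-like barcodes at 126 CPM in Kif13b-/- and 124 CPM in WT, where it overlapped the next class.

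**Figure D1:**
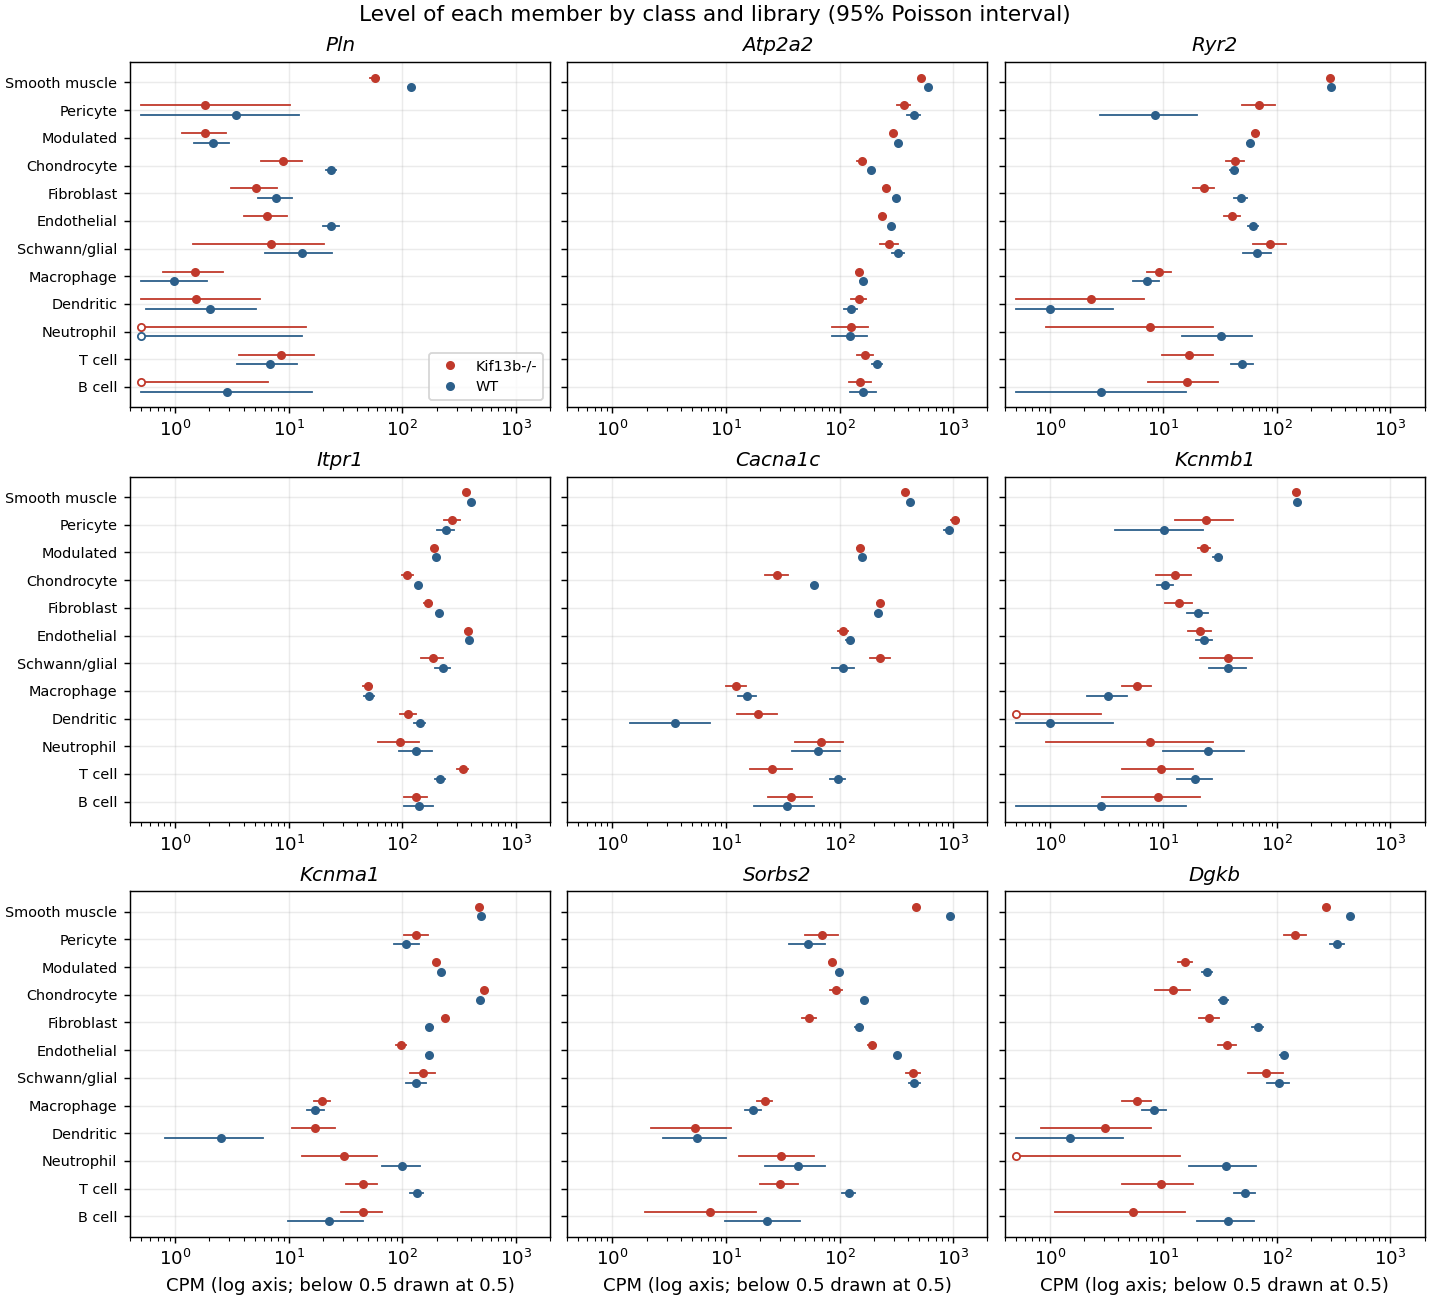
Level of each of the 9 genes (CPM, log axis) in 12 classes of the Kif13b-/- (red) and WT (blue) libraries, with 95% Poisson intervals of the summed counts; open symbols mark 0 UMIs. Smooth muscle leads for Pln, Ryr2, Kcnmb1 and Dgkb, pericyte-like barcodes lead for Cacna1c, and Pln and Sorbs2 show the gap between the libraries within smooth muscle.

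Free RNA from broken cells can give UMIs in classes that do not express a gene, so shares of barcodes with a UMI were set beside macrophage-like barcodes. When each barcode was thinned to 1000 UMIs, a Pln UMI was seen in 5.49% of smooth muscle-like and 0.514% of macrophage-like Kif13b-/- barcodes, and in 9.65% of smooth muscle-like and 0.101% of macrophage-like WT barcodes. Other classes had more Pln in the WT library than in the Kif13b-/- library. The share was 0.192% in Kif13b-/- and 3.10% in WT endothelial-like barcodes, and 0.830% in Kif13b-/- and 2.30% in WT chondrocyte-like barcodes. It was 0.684% in Kif13b-/- and 1.83% in WT fibroblast-like barcodes, and 0 of 129 Kif13b-/- and 6 of 493 WT T cell-like barcodes had a Pln UMI. For Acta2, a defining smooth muscle gene, a UMI occurred in 44.6% of Kif13b-/- and 21.3% of WT macrophage-like barcodes at this depth. That class joined 2 clusters in unequal parts, with the cluster led by Cd5l giving 412 of 844 Kif13b-/- and 302 of 1051 WT barcodes. In fibroblast-like barcodes the Acta2 share was 58.6% in Kif13b-/- and 63.0% in WT, and in chondrocyte-like barcodes 52.3% in Kif13b-/- and 58.4% in WT. The immune classes did not go 1 way. In T cell-like barcodes the Acta2 share was 19.4% in Kif13b-/- and 55.2% in WT, and in B cell-like barcodes 36.2% in Kif13b-/- and 14.8% in WT. Without thinning the Pln shares were 18.8% in smooth muscle and 1.42% in macrophage-like Kif13b-/- barcodes (median 11950 and 5227.5 UMIs), and 26.5% in smooth muscle and 0.761% in macrophage-like WT barcodes (median 6790 and 6414 UMIs).

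The libraries differed in Pln, Sorbs2 and Dgkb within deep smooth muscle-like barcodes. Pln had 480 UMIs and 58.7 CPM in the Kif13b-/- library, against 1183 UMIs and 114 CPM in the WT library (log2 ratio -0.95, 95% interval -1.11 to -0.80). This pooled value for Pln was not reached within either depth range of the deep barcodes, at -0.36 with 5000 to 10000 UMIs and -0.41 with more, and 445 of 604 Kif13b-/- but 271 of 1241 WT barcodes held more. Sorbs2, an adaptor protein of stress fibres, Z-lines and cell adhesions, had 473 CPM in Kif13b-/- and 939 CPM in WT barcodes (log2 ratio -0.99, -1.04 to -0.94). Dgkb had 277 CPM in Kif13b-/- and 433 CPM in WT barcodes (log2 ratio -0.65, -0.72 to -0.57). These 3 of 9 genes were lower by a ratio of 1.5 or more, as were 4.00% of the 13281 genes measured there, and the choice of members used this contrast. The share depended on gene length. Of 393 genes of at least 300 kb, such as Sorbs2 and Dgkb, 10.2% were lower, and of genes under 10 kb, such as Pln, 5.34%. Between these lengths the share was 3.06% at 10 to 30 kb, 2.99% at 30 to 100 kb and 4.17% at 100 to 300 kb. The members Ryr2, Itpr1, Cacna1c and Kcnma1 are also longer than 300 kb and were not lower by this ratio. None of the 9 was higher by that ratio, against 6.09% of all genes.

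The store's pump and release channels, the L-type channel and the BK channel stayed within that ratio. Atp2a2, the member nearest to the limit after Dgkb, had 519 CPM in Kif13b-/- and 602 CPM in WT barcodes (log2 ratio -0.22, -0.27 to -0.16). Itpr1 had 365 CPM in Kif13b-/- and 396 CPM in WT barcodes (-0.12, -0.18 to -0.05). Cacna1c had 377 CPM in Kif13b-/- and 411 CPM in WT barcodes (-0.12, -0.19 to -0.06). The counting intervals of these 3 genes excluded equal levels, and those of the release channel Ryr2 and both BK subunits included them. Ryr2, at 294 CPM in Kif13b-/- and 305 CPM in WT barcodes, had an interval of -0.13 to 0.02 on the log2 scale. Kcnmb1 had 149 CPM in Kif13b-/- and 155 CPM in WT barcodes, with an interval of -0.16 to 0.05. Kcnma1 had 472 CPM in Kif13b-/- and 492 CPM in WT barcodes, with an interval of -0.12 to 0.000596.

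The smooth muscle-like class consisted of 2 clusters, and the 3 genes separated them although all 9 members had been left out of the genes used for clustering. The first, called the Sost cluster after its leading gene, was led by Sost, Mylk4, Itga8 and Ptprz1. The other, called the Sparcl1 cluster, was led by Sparcl1, Sorbs2, Pln, Dgkb, Hpse2 and Timp4. All 12 contractile markers were raised in both. Since the clusters come from these same cells, differences between them are descriptions.

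Pln was concentrated in the Sparcl1 cluster: deep barcodes of that cluster had 218 CPM and those of the Sost cluster 9.59 CPM in the Kif13b-/- library (log2 ratio 4.50), with 260 CPM in the Sparcl1 and 11.6 CPM in the Sost cluster of the WT library (4.48). Sorbs2 had 1497 CPM in the Sparcl1 and 158 CPM in the Sost cluster of the Kif13b-/- library (3.25), and 2029 against 179 CPM in the WT library (3.50). Dgkb had 671 against 155 CPM in the Kif13b-/- library (2.11) and 795 against 179.9 CPM in the WT library (2.14). Among smooth muscle-like barcodes these 3 genes were thus mostly genes of the Sparcl1 cluster. Cacna1c also leaned to the Sparcl1 cluster, with 562 against 321 CPM in Kif13b-/- barcodes (0.81) and 548 against 316 CPM in WT barcodes (0.79). These 4 of 9 members were at least 1.5-fold higher in the Sparcl1 cluster in both libraries, against 12.0% of all genes in the Kif13b-/- and 11.5% in the WT library.

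The other 5 members differed less between the clusters. The pump Atp2a2 had 542 CPM in the Sparcl1 and 511 CPM in the Sost cluster of the Kif13b-/- library, and 610 against 596 CPM in the WT library. The ratio between the clusters was thus 1.06 in the Kif13b-/- and 1.02 in the WT library for the pump, and 22.8 and 22.5 in these libraries for its inhibitor Pln. Itpr1 and Kcnma1 leaned slightly to the Sparcl1 cluster, Itpr1 with log2 ratios of 0.18 in Kif13b-/- and 0.20 in WT barcodes and Kcnma1 with 0.19 in Kif13b-/- and 0.34 in WT barcodes. Kcnmb1 leaned to the Sost cluster in both libraries (-0.26 in Kif13b-/- and -0.34 in WT). Ryr2 leaned to the Sost cluster in Kif13b-/- barcodes (-0.49, interval -0.65 to -0.34), whereas the interval in WT barcodes included equal levels (-0.06, -0.16 to 0.05).

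The Sparcl1 cluster made up 154 of 604 deep smooth muscle-like barcodes in the Kif13b-/- library (25.5%, Clopper-Pearson interval 22.1 to 29.2%) and 541 of 1241 in the WT library (43.6%, 40.8 to 46.4%). Its leading gene Sparcl1 differed little between the libraries within the cluster, at 2732 CPM in Kif13b-/- and 2844 CPM in WT barcodes. By depth, the cluster took 27.7% of Kif13b-/- and 48.8% of WT barcodes with 2000 to 5000 UMIs, and 29.6% of Kif13b-/- and 47.4% of WT barcodes with 5000 to 10000 UMIs. At 10000 UMIs or more it took 24.0% of Kif13b-/- and 29.9% of WT barcodes, with overlapping intervals, and at 500 to 2000 UMIs 47.1% of 34 Kif13b-/- barcodes and 64 of 128 WT barcodes. Barcodes of the Sparcl1 cluster carried more mitochondrial RNA, at a median of 10.1% in Kif13b-/- and 7.92% in WT deep barcodes, against 6.75% in Kif13b-/- and 5.50% in WT barcodes of the Sost cluster. With 1 library each, the genotype and any other difference between the libraries cannot be told apart.

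**Figure D2:**
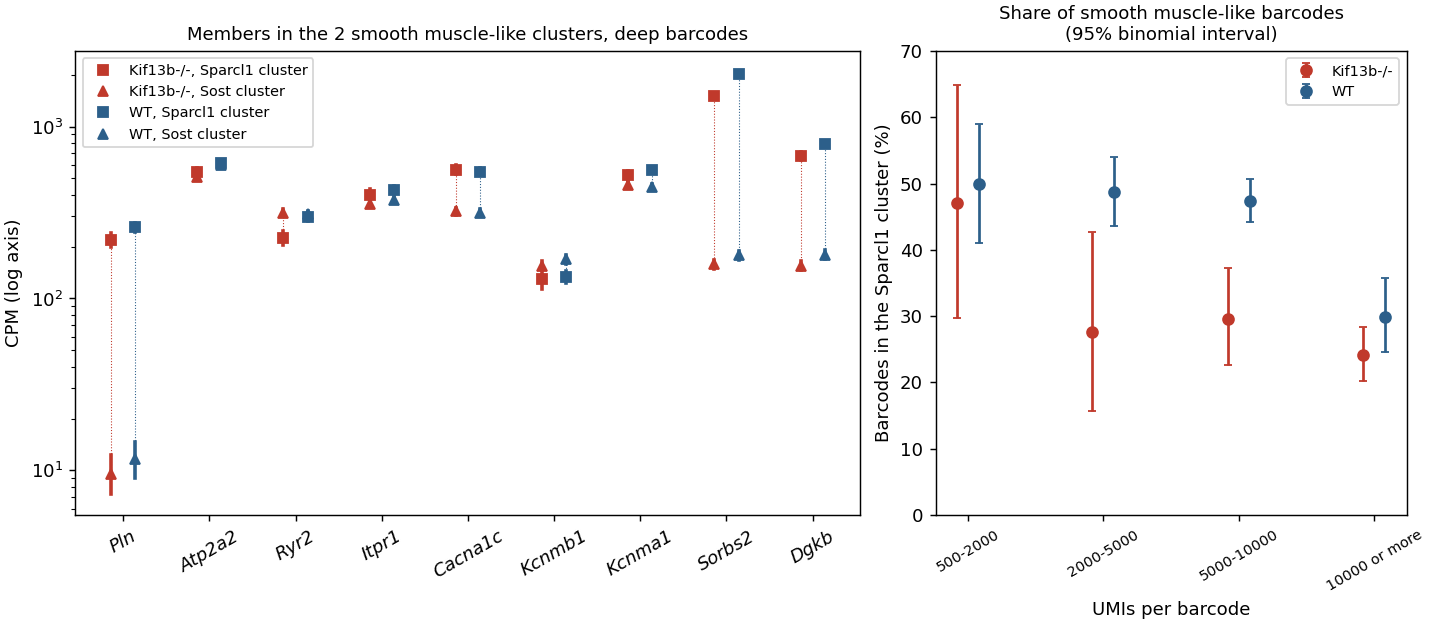
Left, level of each member (CPM, log axis, 95% Poisson interval) in deep barcodes of the Sparcl1 cluster (squares) and the Sost cluster (triangles) of the Kif13b-/- (red) and WT (blue) libraries. Right, share of smooth muscle-like barcodes in the Sparcl1 cluster by UMIs per barcode, with 95% binomial intervals; the Kif13b-/- share is 29.6% and the WT share 47.4% at 5000 to 10000 UMIs.

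Within each cluster the library difference of the 3 genes was smaller, and no member reached a ratio of 1.5. In the Sparcl1 cluster, where 5.26% of genes were lower by that ratio, Pln had 218 CPM in Kif13b-/- and 260 CPM in WT barcodes (log2 ratio -0.25, -0.42 to -0.09). Sorbs2 had 1497 CPM in Kif13b-/- and 2029 CPM in WT barcodes there (-0.44, -0.50 to -0.38), and Dgkb 671 CPM in Kif13b-/- and 795 CPM in WT barcodes (-0.25, -0.34 to -0.15). All 3 stood below WT beyond counting error and by less than in the pooled barcodes. Ryr2 had 224 CPM in Kif13b-/- and 298 CPM in WT barcodes of the Sparcl1 cluster (-0.41, -0.57 to -0.25). In the Sost cluster, where 3.82% of genes were lower, the log2 ratios were -0.27 for Pln (-0.79 to 0.24), -0.18 for Sorbs2 (-0.31 to -0.05) and -0.21 for Dgkb (-0.34 to -0.09). Ryr2 in the Sost cluster had 315 CPM in Kif13b-/- and 310 CPM in WT barcodes (0.02).

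With the Kif13b-/- clusters weighted to the WT mix, an alternative chosen after seeing the data, Pln would stand at 95.4 CPM in Kif13b-/- against 114 CPM in WT barcodes (-0.25), Sorbs2 at 708 against 939 CPM (-0.41) and Dgkb at 367 against 433 CPM (-0.24). The remaining difference of these 3 genes was in the same direction as the pooled one and under the ratio of 1.5. Atp2a2 was at -0.20 with the WT mix, close to its pooled value of -0.22.

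**Figure D3:**
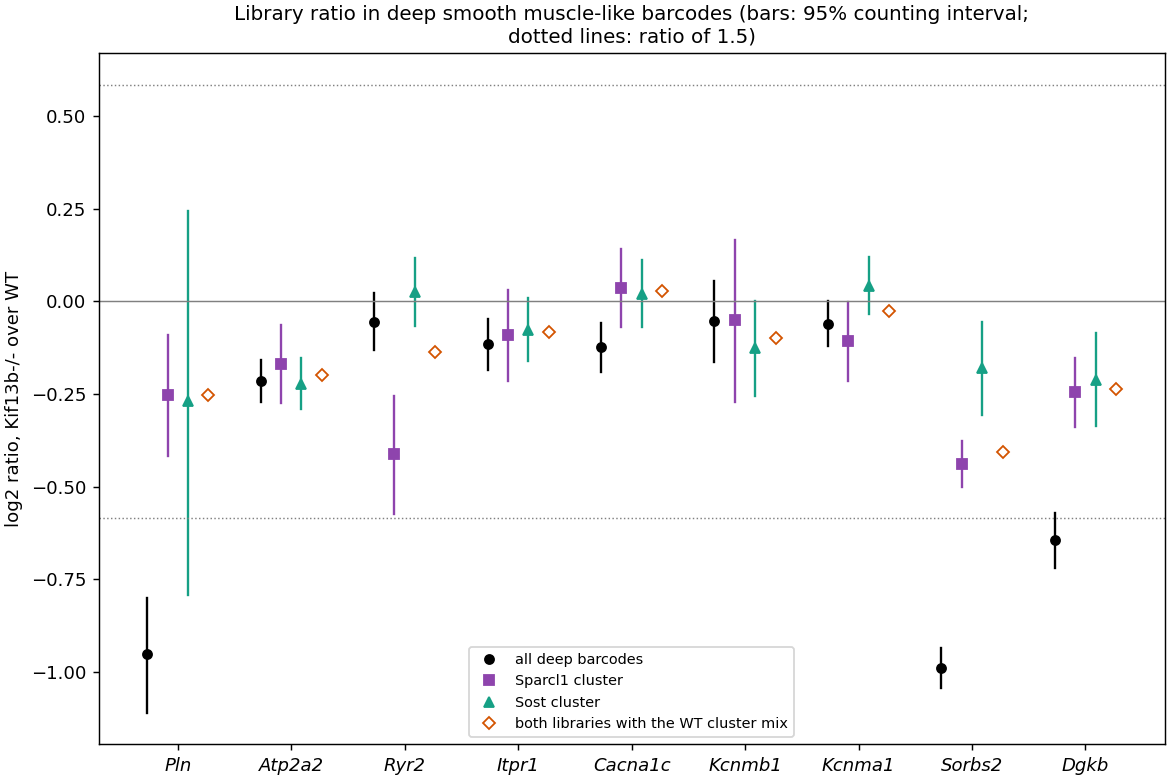
Log2 ratio of each member, Kif13b-/- over WT, in all deep smooth muscle-like barcodes (black), in the Sparcl1 cluster (purple), in the Sost cluster (green) and with both libraries at the WT cluster mix (open diamonds); bars are 95% counting intervals and dotted lines mark a ratio of 1.5. Pln, Sorbs2 and Dgkb lie below the lower dotted line only for the pooled barcodes, at -0.95, -0.99 and -0.65.

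Depth and the mitochondrial limit bear on these values. In barcodes of 10000 UMIs or more, 445 in the Kif13b-/- and 271 in the WT library, the log2 ratios were -0.41 for Pln, -0.43 for Sorbs2 and -0.21 for Dgkb, and no member was lower by 1.5, against 4.41% of genes. At 5000 to 10000 UMIs they were -0.36 for Pln, -0.98 for Sorbs2 and -0.57 for Dgkb, so Sorbs2 alone of the 3 was lower by 1.5 in one of the 2 deep ranges. At 2000 to 5000 UMIs Pln had 0 UMIs in 47 Kif13b-/- barcodes, which allows up to 18.1 CPM from 3 counts, and 218 UMIs or 157 CPM in 369 WT barcodes. A check with no clustering took barcodes of at least 5000 UMIs with at least 2% of their nuclear-gene UMIs in the contractile markers and was added after seeing the data. Its CPM and ratios were scaled to UMIs without the mitochondrial ones, unlike the other levels given here. There the log2 ratio of Pln was -1.73 below 5% mitochondrial UMIs, -1.47 at 5 to 10% and -1.03 at 10 to 20%. Sorbs2 had -1.27, -1.44 and -1.04 in these bins, and Dgkb -0.28 and -1.08 in the lower bins, with 406 CPM in Kif13b-/- and 812 CPM in WT barcodes at 10 to 20%. In each of these mitochondrial bins the 3 genes were thus lower in the Kif13b-/- library, except that Dgkb below 5% stayed within the ratio of 1.5. Sparcl1, the gene that leads the cluster, went with them at -0.94, -0.96 and -0.73.

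Between barcodes, Pln was the most unevenly spread of the members. The 10% of deep barcodes with the most Pln UMIs, not scaled to depth, held 80.2% of its UMIs in the Kif13b-/- and 66.2% in the WT library. For Atp2a2 this share was 24.4% in the Kif13b-/- and 24.5% in the WT library. For Sorbs2 the share was 53.4% in Kif13b-/- and 42.0% in WT barcodes, and for Dgkb 47.5% in Kif13b-/- and 39.7% in WT barcodes. With every deep barcode thinned to 5000 UMIs, a Pln UMI was present in 94 of 604 Kif13b-/- barcodes (15.6%) and 293 of 1241 WT barcodes (23.6%). Within the Sparcl1 cluster these shares were 45.5% in Kif13b-/- and 49.5% in WT barcodes, and within the Sost cluster 3.78% in Kif13b-/- and 3.86% in WT barcodes. The share of barcodes with Pln thus differed between the libraries over the whole class and lay close together inside each cluster.

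A Pln UMI was present in 128 deep Kif13b-/- and 368 deep WT barcodes. In the Kif13b-/- library barcodes with a Pln UMI had 1249 CPM of Sorbs2 and those without had 267 CPM, and in the WT library the values were 2030 CPM with and 501 CPM without. Dgkb had 561 CPM with and 201 CPM without a Pln UMI in Kif13b-/- barcodes, and 815 CPM with and 279 CPM without in WT barcodes. Sorbs2 and Dgkb were thus higher beside Pln in both libraries over the whole class. Within the Sparcl1 cluster the log2 ratios with over without Pln were smaller. Sorbs2 had 0.24 in Kif13b-/- and 0.45 in WT barcodes there, and Dgkb 0.22 in Kif13b-/- and 0.52 in WT barcodes. Within the Sost cluster Sorbs2 had 1.34 in Kif13b-/- and 1.10 in WT barcodes. Dgkb had 0.18 in Kif13b-/- and 0.17 in WT barcodes of the Sost cluster, with intervals that included equal levels. Kcnmb1 leaned the other way, with 136 CPM beside Pln and 152 CPM without it in Kif13b-/- barcodes, and 132 CPM beside Pln and 164 CPM without it in WT barcodes. Its interval included equal levels in Kif13b-/- barcodes (log2 ratio -0.16, -0.38 to 0.04) and, inside each cluster, in both libraries. Median depth was close with and without Pln, at 12495 and 12727.5 UMIs in the Kif13b-/- library and 7613 and 7858 UMIs in the WT library.

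Across 28 levels, 1 for each class and library with at least 50 barcodes, the members differed in which other genes followed them. These correlations are descriptions over 15 classes that share 2 libraries, on log2(CPM + 10) values of 7502 genes. Pln was followed most closely by Timp4, a metalloproteinase inhibitor (Pearson r = 0.87), Hpse2, a heparanase-like protein (0.86), and Otud1, a deubiquitinase (0.81). Sorbs2 was followed by Limch1 (0.94), Synm, which encodes the intermediate filament protein synemin (0.93), and Timp4 (0.92). Dgkb was followed by Tpm1, a tropomyosin (0.93), Npy1r, a neuropeptide Y receptor (0.93), and Ctnna3, an alpha catenin (0.91). Ryr2 and Kcnmb1 shared Efhd1 (0.94 and 0.97) and Thsd4 (0.93 and 0.95) among their closest 3, and Ryr2 and Kcnmb1 were also the most alike pair of members (0.95). Cacna1c was followed by Gucy1b1, a subunit of the nitric oxide receptor (0.96), Slit3 (0.96) and Synpo2 (0.94). The least alike pair was Pln and Cacna1c (0.36).

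Other genes of the same systems were measured from 9 lists, with Hox genes as a list of position along the aorta beside them, all drawn up with earlier results of these data known. Over the 9 lists, 13 genes were lower and 9 higher by a ratio of 1.5 or more in deep Kif13b-/- smooth muscle, which is 8.18% and 5.66% of the 159 genes measured, beside 4.00% lower and 6.09% higher over all 13281 genes. The counting intervals of 3 of the lower and 4 of the higher genes included equal levels, among them Kcnj2, Slc8a3, Adra1d, Casq1, Fkbp1b and Cacnb1. The medians of these 10 lists lay between -0.16 and 0.04 on the log2 scale, where the median of all genes was 0.01.

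Among 23 measured genes of store uptake and release, 1 was lower and 4 were higher. Ryr3, a ryanodine receptor, was the lower one, at 11.7 CPM in Kif13b-/- and 19.9 CPM in WT barcodes (log2 ratio -0.76). Itpr2, an inositol trisphosphate receptor, was among the higher ones, at 13.9 CPM in Kif13b-/- and 9.13 CPM in WT barcodes (0.61). Casq1, a calsequestrin (0.59), and Fkbp1b, a ryanodine receptor binding protein (0.82), were higher from few counts. Calr, the abundant store protein calreticulin, stayed within the ratio at 317 CPM in Kif13b-/- and 274 CPM in WT barcodes (0.21).

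Of 11 voltage-gated calcium channel genes 3 were lower and 1 was higher. The T-type pores Cacna1h, from 65 Kif13b-/- and 156 WT UMIs (-0.91), and Cacna1g, at 3.55 CPM in Kif13b-/- and 6.92 CPM in WT barcodes (-0.95), were lower. The auxiliary subunit Cacna2d3 was lower too, at 11.9 CPM in Kif13b-/- and 20.1 CPM in WT barcodes (-0.76), and the auxiliary subunit Cacnb1 was higher, from 40 Kif13b-/- and 32 WT UMIs (0.66). The subunits with most counts, Cacnb2 at 498 CPM in Kif13b-/- and 642 CPM in WT barcodes (-0.37) and Cacna2d1 at 385 CPM in Kif13b-/- and 396 CPM in WT barcodes (-0.04), stayed within the ratio.

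Of 16 potassium channel genes, 2 were lower and 0 higher: Kcnj12, at 4.40 CPM in Kif13b-/- and 7.40 CPM in WT barcodes (-0.74), and Kcnj2, from 5 Kif13b-/- and 15 WT UMIs. Both encode inward rectifier channels. Kcnab1, the subunit with the most counts, had 685 CPM in Kif13b-/- and 861 CPM in WT barcodes (-0.33). Among 16 chloride, TRP and mechanosensitive channel genes, Trpc6, a receptor-operated cation channel, was lower at 4.89 CPM in Kif13b-/- and 12.2 CPM in WT barcodes (-1.31), and Trpv4 was higher, from 22 Kif13b-/- and 6 WT UMIs (2.14). Of 12 genes of calcium extrusion, Slc8a3 was lower from 12 Kif13b-/- and 24 WT UMIs (-0.62) and Atp1b1 higher (0.63), while the exchanger Slc8a1 had 414 CPM in Kif13b-/- and 417 CPM in WT barcodes. Among 26 calcium sensors and kinases only Camk4 was lower, from 19 Kif13b-/- and 52 WT UMIs (-1.08), and among 20 diacylglycerol signalling genes only Dgki, a diacylglycerol kinase like Dgkb, from 23 Kif13b-/- and 55 WT UMIs (-0.89).

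Of 17 receptors for vasoactive agents 3 were lower and 1 was higher. Agtr1b, an angiotensin receptor, had 29.2 CPM in Kif13b-/- and 49.8 CPM in WT barcodes (-0.77), and Ednrb, an endothelin receptor, had 14.7 CPM in Kif13b-/- and 23.1 CPM in WT barcodes (-0.65). Adra1d, an adrenergic receptor, was lower from 7 Kif13b-/- and 16 WT UMIs. P2ry2, a nucleotide receptor, was higher at 5.38 CPM in Kif13b-/- and 3.08 CPM in WT barcodes (0.80). Within the Sparcl1 cluster none of 13 measured receptors was lower and 5 were higher, where 8.88% of all genes were higher. Among 18 scaffold genes, which include the other Sorbs family members, 0 were lower and 1 was higher, Actn2, at 31.7 CPM in Kif13b-/- and 19.4 CPM in WT barcodes (0.71). Among 26 Hox genes, markers of position along the aorta, Hoxb9 was lower from 8 Kif13b-/- and 19 WT UMIs (-0.85, -2.30 to 0.36) and Hoxc9 higher (0.66), and the 27 listed summed to 340.4 CPM in Kif13b-/- and 365 CPM in WT barcodes.

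**Figure D4:**
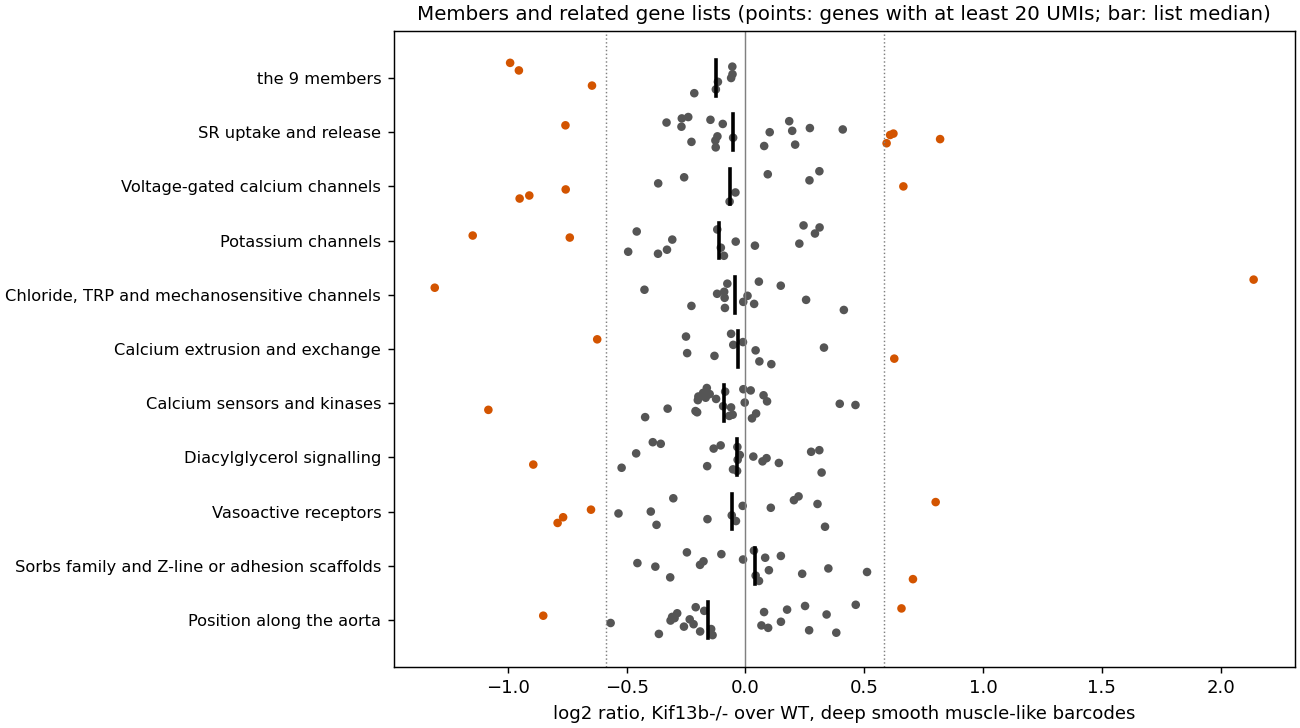
Log2 ratio, Kif13b-/- over WT, of each measured gene (at least 20 UMIs over both libraries) in deep smooth muscle-like barcodes, by gene list; black bars are list medians, dotted lines mark a ratio of 1.5 and orange points lie beyond it. The medians lie between -0.16 and 0.04, and 3 of the 9 members are beyond the lower line.

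Counts of the 3 genes in other classes, given here after their values were seen, were also lower in several classes of the Kif13b-/- library. In endothelial-like barcodes Dgkb had 36.6 CPM in Kif13b-/- and 115 CPM in WT (log2 ratio -1.64), Sorbs2 192 CPM in Kif13b-/- and 322 CPM in WT (-0.75) and Pln 6.39 CPM in Kif13b-/- and 23.4 CPM in WT (-1.84). In fibroblast-like barcodes Sorbs2 had 53.7 CPM in Kif13b-/- and 148 CPM in WT (-1.46) and Dgkb 25.3 CPM in Kif13b-/- and 68.0 CPM in WT (-1.42). In chondrocyte-like barcodes Pln had 8.87 CPM in Kif13b-/- and 23.4 CPM in WT (-1.37). In pericyte-like barcodes Dgkb had 145 CPM in Kif13b-/- and 338 CPM in WT (-1.21). Sorbs2 in Schwann-like or glial-like barcodes, in contrast, had 443 CPM in Kif13b-/- and 455 CPM in WT (-0.04). In macrophage-like barcodes Sorbs2 had 21.8 CPM in Kif13b-/- and 17.4 CPM in WT (0.33). Several of these levels lay near what free smooth muscle RNA would bring, taking Acta2 as its measure. In fibroblast-like barcodes Acta2 stood at 9.49% of its smooth muscle level in Kif13b-/- and 14.9% in WT, Dgkb at 9.25% in Kif13b-/- and 15.3% in WT, and Sorbs2 at 11.4% in Kif13b-/- and 15.7% in WT. In endothelial-like barcodes Acta2 stood at 13.2% in Kif13b-/- and 16.1% in WT, Pln at 11.1% in Kif13b-/- and 19.8% in WT, and Dgkb at 13.4% in Kif13b-/- and 25.8% in WT. These fibroblast-like and endothelial-like values are therefore not read as expression in those classes. Of them, Dgkb in WT endothelial-like barcodes stood at 1.54 times the higher of the Acta2 and Myh11 shares. Other values lay above the Acta2 level. Sorbs2 in endothelial-like barcodes stood at 40.8% in Kif13b-/- and 34.2% in WT. Pln in chondrocyte-like barcodes stood at 15.5% in Kif13b-/- and 19.8% in WT, where Acta2 stood at 4.06% and 7.37%. Dgkb in pericyte-like barcodes stood at 53.2% in Kif13b-/- and 76.0% in WT, where Acta2 stood at 24.3% and 38.9%. That class may express Acta2 itself, so the Acta2 share there cannot be taken as free RNA. The part of free RNA in these values was not tested.

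**Figure D5:**
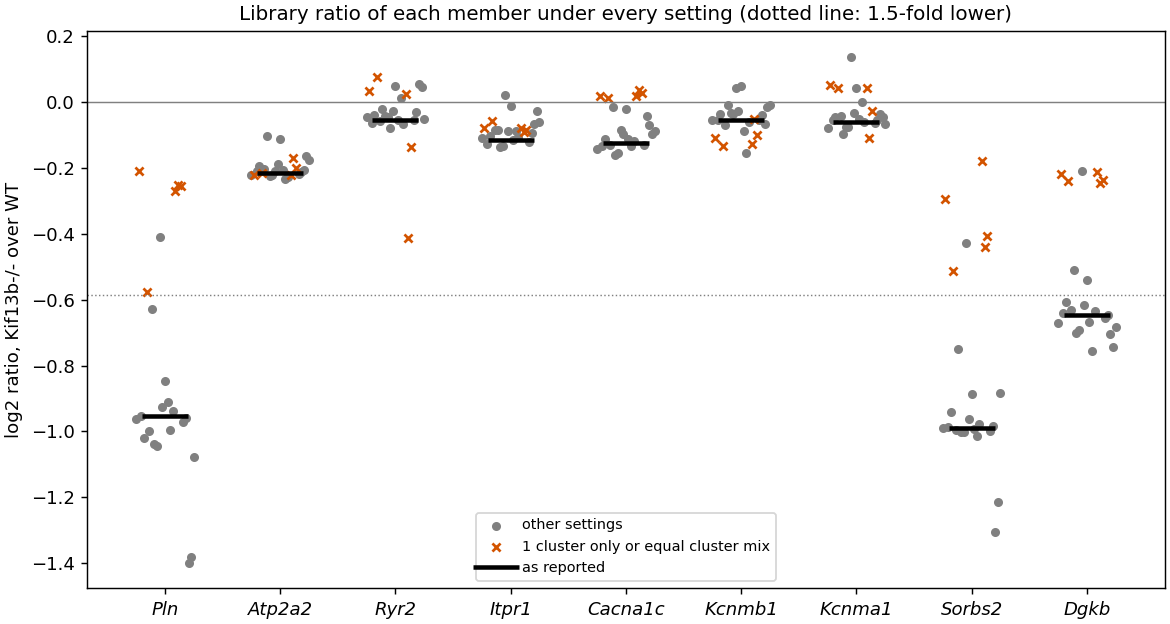
Log2 ratio, Kif13b-/- over WT, of each member in deep smooth muscle-like barcodes as reported (black bars) and under 23 other settings (points); orange crosses are settings with the Sost cluster or the Sparcl1 cluster alone or with an equal cluster mix, and the dotted line marks a 1.5-fold lower level. Pln ranges from -1.40 to -0.21, Sorbs2 from -1.30 to -0.18 and Dgkb from -0.75 to -0.21, while the values of the other 6 members lie between -0.41 and 0.14.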

How the data were processed

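Aortic cells of 1 Kif13b-/- library and 1 WT library were profiled with 10x 3' chemistry. The deposited values are counts, whole UMIs per gene and barcode; the authors made them with Cell Ranger 8.0.1, per the file headers, on genome build mm10, per the submitters' processing notes. The sources used here name no gene annotation behind them, and 0 columns were left unused. Per the labels, 6000 cells were loaded per library, and the files list 7766 Kif13b-/- and 21126 WT barcodes, so an unknown part may not be single cells.

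Barcodes under 500 UMIs, under 300 genes or above 20% mitochondrial UMIs were left out, which kept 7315 Kif13b-/- and 19832 WT barcodes. The automatic threshold of Scrublet marked 0 Kif13b-/- and 4 WT barcodes and was taken to have failed. The highest-scoring barcodes were removed instead up to the share expected at 0.8% per 1000 barcodes, which took 428 Kif13b-/- and 3146 WT barcodes and left 6887 Kif13b-/- and 16686 WT barcodes. Their median depth was 5760 UMIs in the Kif13b-/- and 2385 UMIs in the WT library. Clustering (scanpy 1.11.5, Leiden with leidenalg 0.10.2, resolution 1, 2000 variable genes, 30 principal components, 15 neighbours, seed 1) left out the 9 genes and all lists of related genes. A cluster of at least 30 barcodes took a class name where at least 3, and at least 50%, of a class's markers were raised 2-fold and detected in 10% of barcodes. The mean fold of these markers, taken on the log2 scale, also had to be at least 2-fold above that of every other class. A cluster with most markers of a class raised could therefore stay unnamed. These limits were set after the clusters had been seen.

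Counts were summed per library and class and scaled to CPM. Log2 ratios used a prior count of 0.5, and a level of 0 was bounded by 3 counts. Genes with at least 20 UMIs over both libraries were measured, and a ratio of 1.5 counted as higher or lower. The 95% intervals (exact Poisson, exact conditional for ratios, Clopper-Pearson for shares) cover counting error only. With 1 library per genotype no p-value was computed. The scripts were tested on simulated data. The rule for named genes took the 9 members and, from each list, up to 3 genes with the most UMIs past the ratio in each direction and the 2 with the most UMIs of all. For each member it added the 3 genes with the most similar levels over classes. The members and lists were chosen with earlier results of these data known. Promoter sequences came from RefSeq on GRCm38.p6 and gene positions from GENCODE on mm10. Other tools were python 3.11.15, numpy 2.4.6, scipy 1.17.1, pandas 2.3.3 and matplotlib 3.10.9.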

Additional observations from a re-analysis of the deposited data

Results flagged for a closer look

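In 3 of the 9 genes the ratio between the libraries ran one way in one class and the other way in another, each by at least 1.5 and with intervals that excluded equal levels. Over all 13281 genes measured in deep smooth muscle-like barcodes 11.4% met the same condition across these 13 sets of barcodes. With 1 library per genotype these differences were not tested, and several rest on few UMIs.

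Ryr2 was higher in Kif13b-/- pericyte-like barcodes, with 38 UMIs in 66 barcodes (69.9 CPM), against 5 UMIs in 85 barcodes of the WT library (8.49 CPM), a log2 ratio of 2.92 (1.70 to 4.75). It was lower in Kif13b-/- than in WT barcodes in the fibroblast-like (-1.08), endothelial-like (-0.61), T cell-like (-1.51) and adipocyte-like (-0.79) classes. In T cell-like barcodes its level was close to the share of Acta2, a measure of free smooth muscle RNA: Ryr2 stood at 5.77% of its smooth muscle level in Kif13b-/- and 16.4% in WT barcodes, and Acta2 at 5.80% in Kif13b-/- and 13.4% in WT barcodes. The fibroblast-like, endothelial-like and adipocyte-like levels were 0.815, 1.04 and 0.644 times the higher of the Acta2 and Myh11 shares in Kif13b-/- and 1.07, 1.22 and 1.34 times in WT barcodes. The pericyte-like level of Ryr2 was 0.885 times the higher of these shares in Kif13b-/- and 0.0696 times in WT barcodes. In that class, at 1000 UMIs, an Acta2 UMI was seen in 83.1% of Kif13b-/- and 90.2% of WT barcodes. Pericyte-like barcodes may express Acta2 and Myh11 themselves, so these shares cannot be taken as free RNA there. Neither the higher pericyte-like value nor the lower values in the other classes are read as a change of expression.

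Cacna1c was higher in Kif13b-/- dendritic cell-like barcodes, with 25 UMIs in 85 Kif13b-/- and 7 UMIs in 198 WT barcodes (2.37, 1.20 to 3.90). It was also higher in Schwann or glial-like barcodes, at 228 CPM in the Kif13b-/- and 107 CPM in the WT library (1.09, 0.65 to 1.53). It was lower in Kif13b-/- chondrocyte-like (-1.08) and T cell-like barcodes (-1.89). The T cell-like level was 1.17 times the higher of the Acta2 and Myh11 shares in Kif13b-/- and 1.70 times in WT barcodes. In dendritic cell-like barcodes it was 3.02 times in Kif13b-/- and 1.99 times in WT. Acta2 itself stood there at 1.45% of its smooth muscle level in Kif13b-/- and 0.423% in WT. The part of free RNA was not tested, and these values are not read as a change of expression.

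Kcnma1 was higher in Kif13b-/- dendritic cell-like barcodes, with 22 Kif13b-/- and 5 WT UMIs (2.64, 1.31 to 4.50). It was lower in Kif13b-/- endothelial-like (-0.82), neutrophil-like (-1.65) and T cell-like barcodes (-1.58), the neutrophil-like value from 8 Kif13b-/- and 28 WT UMIs. Its neutrophil-like level was 1.02 times the higher of the Acta2 and Myh11 shares in Kif13b-/- and 1.49 times in WT barcodes. The T cell-like level was 1.63 times in Kif13b-/- and 2.01 times in WT, and the dendritic cell-like level 2.11 times in Kif13b-/- and 1.20 times in WT. The part of free RNA was not tested here either, and these values are not read as a change of expression.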

How the results depend on the processing

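Pln, Sorbs2 and Dgkb were below 0 (log2 Kif13b-/- over WT, deep smooth muscle-like barcodes) in all 23 other settings tried and none turned round. Pln and Sorbs2 were lower by 1.5 in 17 settings and Dgkb in 15. In the order Pln, Sorbs2, Dgkb, the values were -0.21, -0.29 and -0.22 at resolution 0.5 and -0.58, -0.51 and -0.24 at 10% mitochondrial UMIs or fewer, both without the Sparcl1 cluster, which was unnamed there. They were -0.63, -0.75 and -0.51 with barcodes classed one by one from marker shares, and -0.41, -0.43 and -0.21 at 10000 UMIs or more. They were -0.27, -0.18 and -0.21 in the Sost cluster alone, -0.25, -0.44 and -0.25 in the Sparcl1 cluster alone, and -0.25, -0.41 and -0.24 with both libraries set to the WT mix of clusters. At resolution 0.5, at 10% mitochondrial UMIs, at 10000 UMIs, in either cluster alone and at the WT mix, 0 members were lower by 1.5. Scaled to contractile markers, which put the median of all genes at 0.11, Sorbs2 had -0.89 and Dgkb -0.54; thinned to 5000 UMIs, Dgkb had -0.75.

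The WT mix, the removal of shared barcodes, the 2 settings that count the Sparcl1 cluster as smooth muscle and the 2 gates on contractile genes were chosen after seeing the data. With the Sparcl1 cluster counted as smooth muscle at 10% mitochondrial UMIs, Pln had -1.40 and Sorbs2 -1.30. Under a gate on contractile genes without clustering, below 10% mitochondrial UMIs, Pln had -1.38, Sorbs2 -1.22 and Dgkb -0.75, and at any mitochondrial share Sorbs2 had -0.88. Both gates were scaled to UMIs without the mitochondrial ones.

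Related genes lower by 1.5, 13 in the report, numbered 3 at resolution 0.5 and in the Sost cluster, 4 at 10% mitochondrial UMIs and at the WT mix, 6 by marker shares and 2 in the Sparcl1 cluster. Those higher, 9 in the report, numbered 14 by marker shares, 5 without doublet removal and 5 at resolution 0.5 with the Sparcl1 cluster counted. With no minimum above 1 UMI 16 were higher, and over all genes 3122 were lower and 3504 higher, against 531 and 809. All 9 members were at least 1.5 higher in smooth muscle-like than in modulated barcodes in all 8 settings and both libraries, but the sizes moved: Pln ran from 0.93 to 5.77 in Kif13b-/- and from 2.32 to 6.71 in WT barcodes, Sorbs2 from 0.73 to 2.61 in Kif13b-/- and from 0.99 to 3.29 in WT barcodes, and Dgkb from 3.26 to 6.67 in Kif13b-/- and from 2.98 to 5.71 in WT barcodes. No paired analysis was possible because each genotype has 1 library.

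Depth limited the rarer genes and classes: at 2000 to 5000 UMIs the 0 Pln UMIs of 47 Kif13b-/- barcodes allow a level of up to 18.1 CPM.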

Other observations

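At resolution 2 the smooth muscle-like barcodes formed 3 clusters. The third was led by Lypd8l and Itih4 and held 18.5% of the Kif13b-/- and 17.6% of the WT deep smooth muscle-like barcodes. Pln had 20 UMIs in Kif13b-/- and 12 UMIs in WT barcodes of the third cluster (log2 ratio 0.97, -0.11 to 2.16). In the cluster led by Sost at this resolution Pln had 39 UMIs in Kif13b-/- and 59 UMIs in WT barcodes (-0.74, -1.37 to -0.14), a ratio past 1.5 that the Sost cluster of the report did not reach. The Kcnma1 level of the third cluster was 251 CPM in Kif13b-/- and 292 CPM in WT barcodes, against 534 CPM in Kif13b-/- and 518 CPM in WT barcodes of the cluster led by Sost. Dgkb had 69.6 CPM in Kif13b-/- and 91.5 CPM in WT barcodes of the third cluster. Kcnmb1, the partner subunit of Kcnma1, had 164 CPM in Kif13b-/- and 169 CPM in WT barcodes of the third cluster, against 152 CPM in Kif13b-/- and 169.6 CPM in WT barcodes of the Sost cluster. The levels of the pore and the accessory subunit of the BK channel thus differed in how far they varied between clusters. The genes that define a cluster were part of the clustering, and the 9 members were not.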
